A study of Xenopus laevis with 5 samples.

Results

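Transcripts of Notch ligands, of the receptor notch1 and of Hes repressors were measured in explants of Xenopus laevis ectoderm, with and without an activated zic1. Probe sets were taken by their single annotated gene symbol, as those of jag1, notch1, dll1, hes1, hes4, hes7.1 and every gene whose symbol starts with hes5, whichever gene copy they belong to. This gave 22 of 15490 tested probe sets, for 15 of 7530 gene symbols on the array. All 22 had values on all 5 arrays, and no filter on low values was applied. The genes were chosen with their differences between zic1 and control explants in view; that is, they were picked partly from the log2 differences of jag1.L, notch1.S, hes1.S, hes7.1.L and hes5.5.S. The differences below therefore describe chosen genes, and their p-values give no independent support.

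The zic1 group held 2 arrays, of explants from embryos injected at the stage of 2 cells with a zic1 whose activity a hormone turns on. The control group held 3 arrays, of explants from embryos that received beta globin in its place. All of these embryos also received noggin, a secreted BMP antagonist that makes ectoderm neural. All explants were cut at stage 9, kept until the equivalent of stage 12, and given cycloheximide, which blocks protein synthesis, 30 min ahead of dexamethasone, the hormone. They were collected 3 h after dexamethasone and treated with proteinase K. The labels call the arrays of a group biological replicates without saying how many embryos each pools or whether they share a day, so the p-values reflect array-to-array spread, which may be technical.

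Notch is a transmembrane receptor that is activated by ligands of the Jagged and Delta families on neighbouring cells. Proteolytic cleavage then frees its intracellular domain, which enters the nucleus and turns on genes together with the DNA-binding protein RBPJ. Genes of the Hes family, basic helix-loop-helix repressors, are its best-known targets, and in the frog neural plate they hold cells back from becoming neurons. Zic1 belongs to a family of zinc-finger factors that act early in neural and neural crest development.

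Each value is a linear ratio in which 1 stands for the middle of a probe set's 5 arrays. The absolute signal is not kept in these values. Levels can therefore not be compared between genes, and a flat probe set cannot be told from one that is not above background. Zic1 replicate 1 shared exactly equal values with control 1 in 944 probe sets and with control 2 in 788, and these controls shared 832, against 35 to 73 for the other 7 pairs of arrays. Values within this set of 3 arrays, and within the set of the other 2, are given below as the differences within sets. The other 2, zic1 replicate 2 and control 3, shared only 43 equal values and form a set merely as the arrays that remain. The difference in that set is 1 zic1 array against 1 control. RNA of whole explants was measured, so more cells of a type and more RNA per cell cannot be told apart.

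Across the 22 probe sets the ligand jag1.L and one Hes gene, hes5.5.S, were past the threshold. Notch1.S, hes1.S and single probe sets of hes7.1.L and hes4.S lay just short of it, at adjusted p from 0.05125 to 0.0611 (limma). The other hes7.1.L probe set (0.22) and a further one of hes5.5.S (0.10) overlapped with the controls. In all, 3 probe sets were higher in zic1 explants at an adjusted p under 0.05 (limma), where 1.10% of all tested probe sets were, and 0 were lower, where 0.316% of all were. At an unadjusted p under 0.05 there were 10 higher, where 10.6% of all were, and 0 lower, where 10.3% were. The zic1 arrays lay above all control arrays in 11 of the 22, against a background of 19.9%, and below them in 2, against 19.4%. A count of probe sets at least 1.5-fold higher without overlap held 9 of the 22, where 4.51% of all probe sets were. The median log2 difference was 0.26 over the 22 probe sets, with a range from -0.21 to 2.34, against a median of 0.00 over all probe sets. These shares follow in part from how the genes were chosen, and nothing is read from them.

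**Figure D1:**
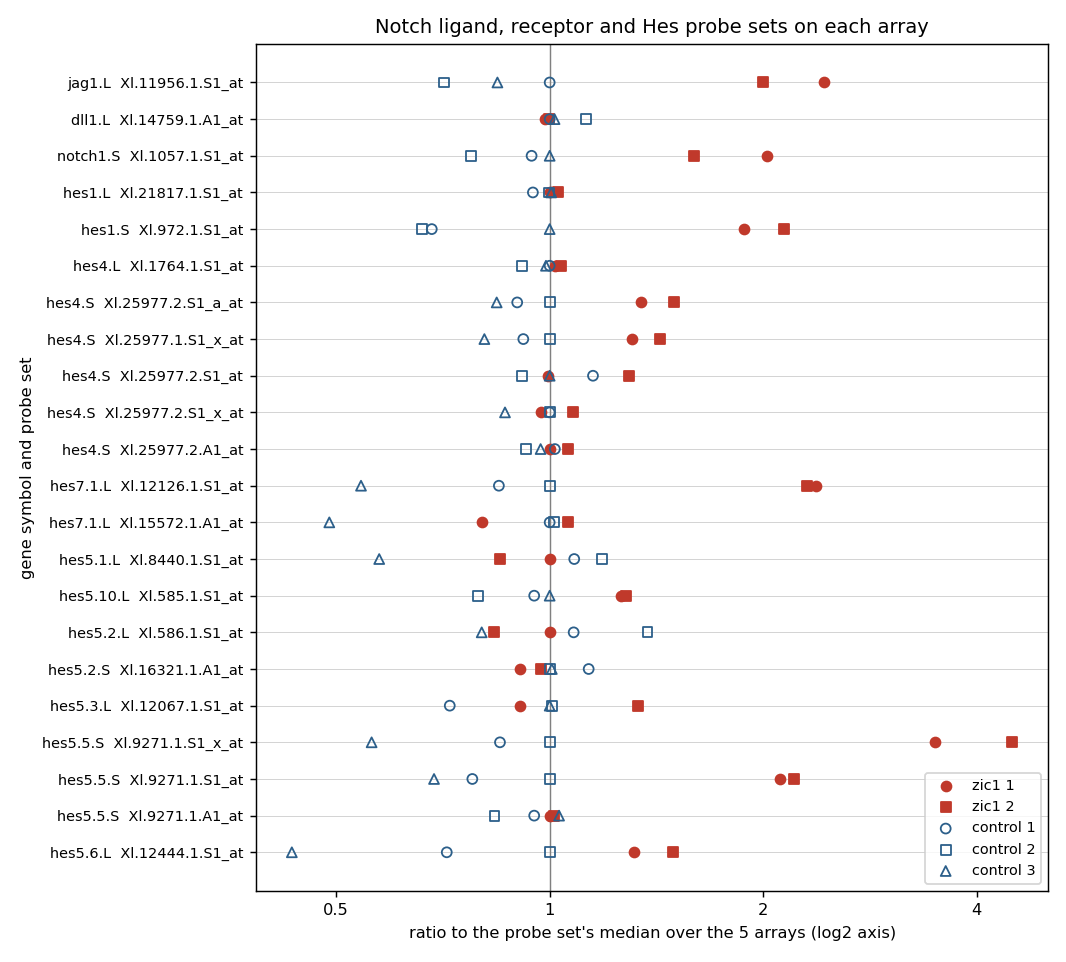
Ratio of each of the 22 probe sets (rows, ordered from ligands to receptor to Hes genes) to its median over the 5 arrays, on a log2 axis; filled red symbols are the 2 zic1 arrays and open blue symbols the 3 control arrays. Both zic1 arrays stand to the right of all controls for 11 rows, with hes5.5.S at 3.49 and 4.49 the farthest, while rows such as dll1.L and hes1.L lie close to 1 on every array.

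Among the ligands, jag1.L was higher in zic1 explants and dll1.L was nearly flat. Jag1, the frog Serrate-1, is a ligand of the Jagged family, and its probe set read 2.44 and 2.00 in zic1 explants, against 1.00, 0.710 and 0.844 in control explants. The zic1 arrays averaged 2.22 ± 0.31 and the controls 0.851 ± 0.145 (SD, n = 2 and 3). Both zic1 arrays were thus above every control, by a gap larger than the spread inside either group. The difference was 1.39 ± 0.17 on the log2 scale (SE), a fold of 2.62 with a 95% interval from 1.93 to 3.55 (adjusted p = 0.0395, limma). It ranked 77th of 15490 probe sets by size of increase. The difference within sets was 1.53 in the set of 3 arrays and 1.25 in the other set. With each array left out in turn the difference ran from 1.25 to 1.53. The adjusted p was 0.0828 without control 1, 0.131 without control 2 and 0.0663 without control 3 (limma). Over all probe sets 21, 5 and 207 passed in these fits, against 219 with all 5 arrays. Without a zic1 array only 1 was left in its group, so the size alone is given for those fits. The call was also lost after quantile normalization (adjusted p = 0.0558, limma) and with the set of arrays as a block (adjusted p = 0.0894, limma).

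Dll1, a Delta ligand that marks prospective neurons in the frog neural plate, was represented by a single probe set of dll1.L. It read 0.986 and 0.997 in zic1 explants, against 1.00, 1.12 and 1.02 in control explants. The zic1 arrays were the lowest of the 5, though only barely so, and the difference was -0.08 with a 95% interval from -0.29 to 0.14. That interval leaves out a change of the size seen for jag1.L in the values of this probe set. A flat probe set cannot be told from one not above background, so nothing is read from it about the dll1 transcript. No probe set carried the symbols jag1.S or dll1.S, the other copies of these genes in this allotetraploid frog.

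Notch1, the receptor, had a single probe set, of notch1.S. It read 2.03 and 1.60 in zic1 explants, against 0.943, 0.775 and 1.00 in control explants. Every zic1 array was above every control, and the 2 zic1 arrays lay farther apart than the extreme controls did on the linear scale. The fold was 2.00 (95% interval 1.51 to 2.64), a log2 difference of 1.00 ± 0.16 that missed the threshold (adjusted p = 0.0579, limma). Within sets the difference was 1.24 and 0.67. Like jag1.L, notch1.S was higher in zic1 replicate 1 than in zic1 replicate 2 and lowest in control 2. Cyclic loess is a scaling that bends each array's ratios to the others'. After it the differences were 0.40 for jag1.L (adjusted p = 0.169, limma) and 0.28 for notch1.S. The values hold no signal level, so its curve follows the mean ratio over the arrays, which itself carries the group difference. It can thus take out part of that difference. Whether it did so here was not tested, and nothing is read from a fall after it. Under the same scaling hes1.S went from 1.39 to 1.05 and hes5.6.L from 1.05 to 1.15.

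**Figure D2:**
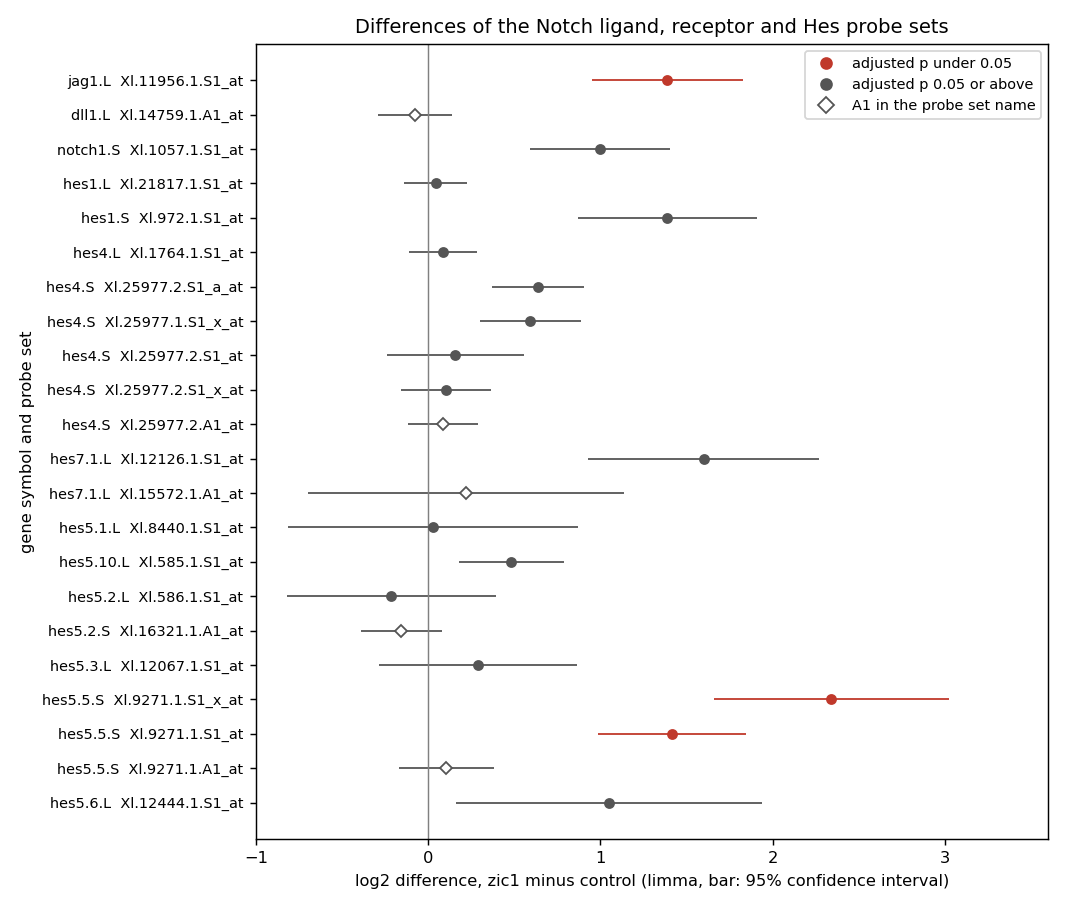
Log2 difference between zic1 and control arrays for each of the 22 probe sets, with bars for the 95% confidence interval from limma; red marks the 3 probe sets at an adjusted p under 0.05 and open diamonds the 5 probe sets with A1 in their name. The largest differences belong to hes5.5.S (2.34), hes7.1.L (1.60), jag1.L and hes1.S (1.39 each), and every A1 interval includes 0.

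Of the Hes genes, hes1 and hes4 are the frog hairy genes, repressors that bind DNA as dimers and recruit Groucho corepressors. Hes1.S read 1.88 and 2.14 in zic1 explants, against 0.682, 0.661 and 1.00 in control explants. Here control 3 was the highest control and the groups stood well apart, at 2.01 ± 0.18 in zic1 and 0.781 ± 0.190 in control arrays (SD, n = 2 and 3). The log2 difference of 1.39 ± 0.21, a fold of 2.62 (95% interval 1.83 to 3.75), came close to the threshold without passing it (adjusted p = 0.05125, limma). Its adjusted p was 0.0963 without control 1, 0.160 without control 2 and 0.0323 without control 3 (limma). In these fits 21, 5 and 207 of all probe sets passed. The other copy gave a different picture: hes1.L read 1.00 and 1.03 in zic1 explants, against 0.947, 0.998 and 1.01 in control explants. All 5 of its values lay within 1.08-fold of each other, and its difference was 0.04 (95% interval -0.14 to 0.23). The intervals of hes1.S and hes1.L do not overlap, and the difference between the copies was not tested. Hes1.S was chosen partly for its difference, so this contrast follows in part from that choice.

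Hes4, the frog hairy2 gene, is known for its place at the neural plate border and in the floor plate. Its copy hes4.S had 5 probe sets, which fell into those with a difference and those without. The probe set ending S1_a_at read 1.35 and 1.497 in zic1 explants, against 0.900, 1.00 and 0.842 in control explants, a difference of 0.64 ± 0.11 (adjusted p = 0.0611, limma). One of the 2 ending S1_x_at read 1.31 and 1.43 in zic1 explants, against 0.918, 1.00 and 0.809 in control explants, a difference of 0.59 ± 0.12 (adjusted p = 0.0766, limma). In both the groups did not overlap, yet neither passed. The remaining hes4.S probe sets differed by 0.16, 0.10 and 0.09, with zic1 and control values interleaved. In Affymetrix names the ending _x_at warns that some probes also match other sequences, and _a_at marks probes shared by transcripts of a gene. The single probe set of hes4.L read 1.02 and 1.04 in zic1 explants, against 1.00, 0.915 and 0.988 in control explants. Its groups did not overlap, but the difference was only 0.09 (95% interval -0.11 to 0.28).

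Hes7.1, known in frog as XHR1, is a Hes-related repressor of the prospective boundary between midbrain and hindbrain. The hes7.1.L probe set ending S1_at read 2.37 and 2.31 in zic1 explants, against 0.848, 1.00 and 0.542 in control explants. The zic1 arrays were nearly equal, while the controls spanned 1.85-fold, with control 3 the lowest. The fold was 3.03 (95% interval 1.90 to 4.83), a log2 difference of 1.60 ± 0.27 that did not pass (adjusted p = 0.0611, limma). Without control 3 the difference was smaller, at 1.34. The adjusted p was 0.101 without control 1, 0.142 without control 2 and 0.0393 without control 3 (limma). In these fits 21, 5 and 207 of all probe sets passed. After cyclic loess the difference was 0.80. The second hes7.1.L probe set, ending A1_at, read 0.802 and 1.06 in zic1 explants, against 1.00, 1.02 and 0.489 in control explants. In this one the groups overlapped, and the difference of 0.22 (95% interval -0.70 to 1.14) turned to -0.13 without control 3. The 2 probe sets of hes7.1.L shared the low value in control 3 and differed in the zic1 arrays.

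The hes5 genes, the frog enhancer-of-split-related repressors, lie in tandem. In the order of genes in the Xenopus_laevis_v10.1 gene table, hes5.1 and hes5.2 stand side by side with no other protein-coding gene between them, and hes5.3 to hes5.10 form an uninterrupted run of 8 genes, on both the L and the S copy of the chromosome. Of the 10 L genes 5 had a probe set, and of the 10 S genes 2 had one. Genes of such a run are similar in sequence and may share signal on short probes, so the symbol of a probe set need not name its only source.

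Hes5.5.S had the largest difference of all 22 probe sets. Its probe set ending S1_x_at read 3.49 and 4.49 in zic1 explants, against 0.851, 1.00 and 0.561 in control explants. The lower zic1 array was more than 3 times the highest control. The fold was 5.07 (95% interval 3.15 to 8.14), a log2 difference of 2.34 ± 0.27 (adjusted p = 0.0376, limma) that ranked 14th of 15490. A second probe set of hes5.5.S, ending S1_at, read 2.11 and 2.21 in zic1 explants, against 0.778, 1.00 and 0.687 in control explants. It had the same order of controls, with control 2 highest and control 3 lowest, and a smaller difference of 1.41 ± 0.17 (fold 2.67, 95% interval 1.98 to 3.59; adjusted p = 0.0382, limma). The third, ending A1_at, read 1.00 and 1.01 in zic1 explants, against 0.951, 0.836 and 1.03 in control explants, so that the groups overlapped (difference 0.10, 95% interval -0.17 to 0.38).

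Of the hes5.5.S calls, that of the S1_x_at probe set was kept only without control 3. That of the S1_at probe set was lost whichever control was left out. The adjusted p of the S1_x_at probe set was 0.0864 without control 1, 0.130 without control 2 and 0.0393 without control 3 (limma). The S1_at probe set lay at 0.0868, 0.0929 and 0.0518 in the same order. Over all probe sets 21, 5 and 207 passed in these fits. For fits with only 1 zic1 array the sizes alone are given. The sizes moved less than the p-values: with each array left out in turn the difference of the S1_x_at probe set ran from 2.101 to 2.52 and that of S1_at from 1.29 to 1.56. Within sets the differences were 1.92 and 3.00 for the first of these and 1.26 and 1.69 for the second. After cyclic loess, with the limit given for notch1.S, they were 0.37 and 0.62 (adjusted p = 0.587 and 0.187, limma). Neither probe set passed after quantile normalization (adjusted p = 0.0558 and 0.0570, limma). The same held with the set of arrays as a block (adjusted p = 0.0829 for both, limma).

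Of the other measured genes of the run of 8, hes5.6.L and hes5.10.L lay above all controls in zic1 explants and hes5.3.L overlapped with them, none passing. Hes5.6.L, formerly esr9, read 1.32 and 1.49 in zic1 explants, against 0.716, 1.00 and 0.433 in control explants. The groups did not overlap, but the controls spanned 2.31-fold, and the difference of 1.05 ± 0.35 had an adjusted p of 0.181 (limma). Hes5.10.L, formerly esr-6e, a gene of the frog ectoderm that responds to Notch, read 1.26 and 1.28 in zic1 explants, against 0.951, 0.792 and 1.00 in control explants. Its zic1 values were almost identical and above all controls, with a difference of 0.48 ± 0.12 (adjusted p = 0.111, limma). Hes5.3.L read 0.909 and 1.33 in zic1 explants, against 0.723, 1.01 and 1.00 in control explants, which overlapped (difference 0.29, 95% interval -0.29 to 0.87). Its difference was 0.015 without zic1 replicate 2, 0.13 without control 1 and 0.57 without zic1 replicate 1. Over the 6 probe sets of the run the median difference was 0.77, and all 6 were above 0, where 7732 of all 15490 were. In 4 of the 6 the zic1 arrays lay above all controls (background 19.9%). Since 3 of the 6 belong to hes5.5.S, chosen for its difference, nothing is read from these numbers.

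Hes5.1 and hes5.2, the other tandem genes, did not lie higher in zic1 explants. Hes5.1.L, the frog ESR-1 that is often used as a readout of Notch in the neural plate, read 1.00 and 0.852 in zic1 explants, against 1.08, 1.19 and 0.575 in control explants. Its controls alone spanned 2.06-fold and enclosed both zic1 values. The difference was 0.03 with a 95% interval from -0.81 to 0.87, or 0.570-fold to 1.83-fold. Hes5.2.L, formerly esr-7, read 1.00 and 0.835 in zic1 explants, against 1.08, 1.37 and 0.802 in control explants (difference -0.21, 95% interval -0.82 to 0.39). Hes5.2.S read 0.907 and 0.972 in zic1 explants, against 1.14, 1.00 and 1.01 in control explants. Here both zic1 arrays were below all controls, by a difference of -0.16 (95% interval -0.39 to 0.08). Over these 3 probe sets the median difference was -0.16.

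**Figure D3:**
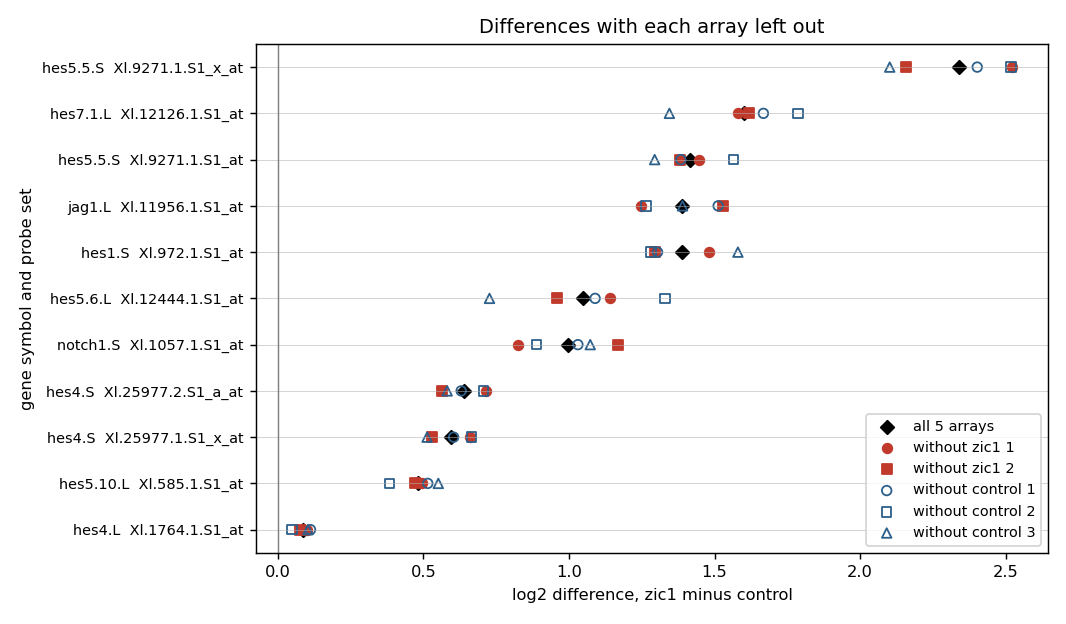
Log2 difference between zic1 and control arrays for the 11 probe sets whose groups did not overlap, with all 5 arrays (black diamonds) and with each array left out in turn (red filled symbols for zic1 arrays, open blue symbols for controls). Since these groups did not overlap, every difference had to stay above 0, and only the sizes are informative. That of hes5.6.L moved most, from 0.73 without control 3 to 1.33 without control 2.

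Some patterns ran across these genes by array and by the name of the probe set. Control 3 was the lowest control in 7 of the 11 probe sets of hes5 and hes7.1 genes, and in 3 of the 11 of jag1, notch1, dll1, hes1 and hes4, where control 2 was the lowest in 6. Control 3 also stood apart in endoderm genes, whose mean log2 ratio was 0.70 there. The 5 probe sets with A1 in their name, of dll1.L, hes4.S, hes7.1.L, hes5.5.S and hes5.2.S, had differences between -0.16 and 0.22, and the zic1 arrays lay above all controls in 0 of them. For the 17 with S1 the median difference was 0.59 and 11 had the zic1 arrays above all controls. Over the whole array this held for 21.9% of probe sets with A1 and 17.3% of those with S1. Jag1.L, notch1.S, hes1.S, hes7.1.L and hes5.5.S, whose differences guided the choice of genes, each have their largest in an S1 probe set. The contrast between S1 and A1 thus follows in part from that choice. What A1 and S1 mark is not given in the sources used here.

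The gene copies and probe sets of a symbol thus did not give a single answer. Of the genes with both copies measured, hes1 and hes4 had their larger differences in the S copy, at 1.39 for hes1.S and 0.32 as the mean of the 5 hes4.S probe sets, against 0.04 for hes1.L and 0.09 for hes4.L. Since hes1.S was chosen partly for its difference, nothing is read from its contrast with hes1.L. For hes5.2 both copies were slightly lower. When the log2 values of all probe sets of a symbol were averaged, 3 of the 15 symbols were past the threshold, namely jag1.L (1.39, adjusted p = 0.0312, limma), hes1.S (1.39, adjusted p = 0.0422) and hes5.5.S (1.29, adjusted p = 0.0221). Hes7.1.L then differed by 0.91 (adjusted p = 0.154). The 3 symbols that passed were all chosen partly for their differences, and the share of all symbols past the threshold was not counted. Nothing is read from this count.

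Other genes of the Notch pathway that had probe sets held no call. A list of 80 other pathway genes, compiled from their known roles, had probe sets for 29 of them, 50 probe sets in all. Of these 0 passed in either direction (limma), against backgrounds of 1.10% higher and 0.316% lower. With shares this low, few if any calls would fall among 50 probe sets, so nothing is read from the 0. At an unadjusted p under 0.05 there were 7 higher and 2 lower, against 10.6% and 10.3% of all probe sets. With array weights 1 higher and 1 lower passed, against 3.77% and 2.27%. The median difference was -0.01. The zic1 arrays lay above all controls in 14 of the 50 (background 19.9%) and below them in 6 (background 19.4%).

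By role, the ligand dlc.L differed by 0.36, and notch2, notch3 and notch4 had no probe set here. Probe sets of mib1.L, the ubiquitin ligase that lets ligands be taken up, differed by 0.31, 0.26 and 0.18. Those of adam10.S, the protease that makes the first activating cut, ran from 0.15 to 0.38. Rbpj.S, the DNA-binding partner of Notch, differed by 0.46, 0.14 and 0.12 in its 3 probe sets, none past the threshold. The protease gene furin.L differed by 0.54, 0.25, 0.03 and -0.16 in its probe sets, none past the threshold, and furin.S by 0.01. In the probe sets at 0.54 and 0.25 the zic1 arrays lay above all controls. The remaining genes of these roles differed little, such as neurl4.S (0.11), neurl1.L (-0.11), psen2.S (-0.10), psenen.L (-0.13) and snw1.S (0.02 and -0.03). Of all 50 probe sets of the list, 24 were above 0 and 26 below.

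Among the corepressors both probe sets of ncor1.S, a nuclear receptor corepressor, were nearest to the threshold. One read 1.77 and 1.48 in zic1 explants, against 1.00, 0.790 and 0.757 in control explants (difference 0.94, adjusted p = 0.0611, limma). The other differed by 0.94 as well (adjusted p = 0.0729), and neither overlapped with the controls. Hdac1.S, a histone deacetylase, differed by -0.22 and -0.11. Nrarp.S, a feedback inhibitor that Notch itself induces, read 1.41 and 1.25 in zic1 explants, against 0.755, 0.951 and 1.00 in control explants, which did not overlap (difference 0.57, adjusted p = 0.117, limma). In the other direction, the Deltex family member dtx4.L read 0.676 and 0.736 in zic1 explants, against 1.03, 1.00 and 1.01 in control explants. Its groups were well apart with little spread, and its difference of -0.52 ± 0.08 fell just short (adjusted p = 0.0510, limma). Pofut1.L, which adds the fucose that Notch needs, differed by -0.36 (adjusted p = 0.239, limma).

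Among related repressors of the same helix-loop-helix class, bhlhe40.L differed by 0.66, with the zic1 arrays above all controls (adjusted p = 0.228, limma). Hey1.S, a relative of the Hes genes, read 0.958 and 1.61 in zic1 explants, against 0.574, 1.00 and 1.04 in control explants in its most changed probe set. These values overlapped, and its other probe sets differed by 0.03 and -0.06. The 2 probe sets of hes7.2.L differed by -0.03 and -0.13, and hes2.L by -0.04.

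**Figure D4:**
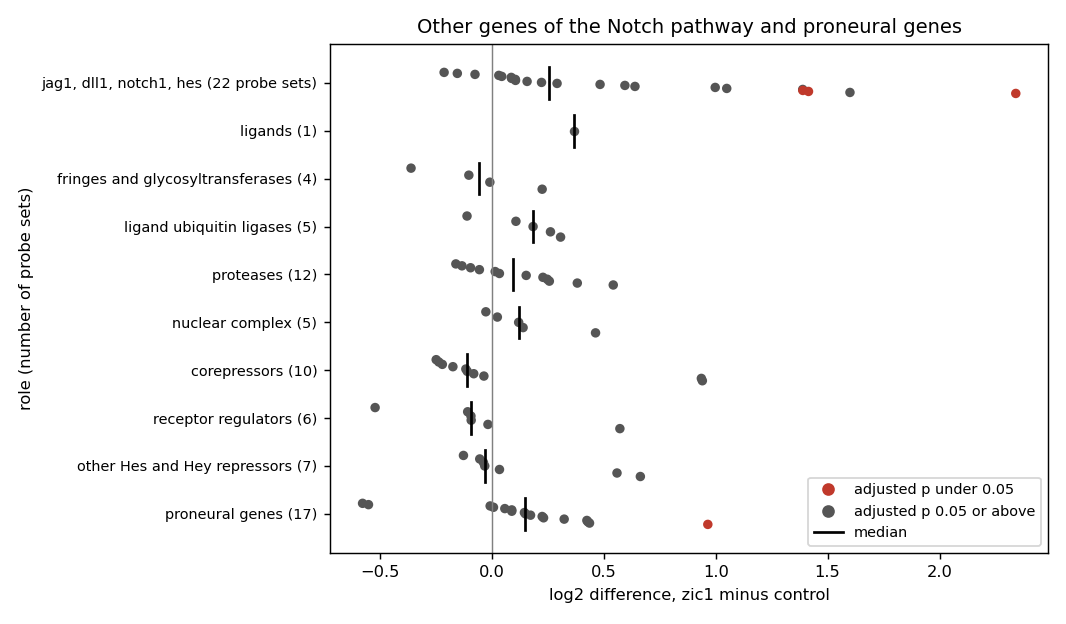
Log2 difference between zic1 and control arrays for single probe sets (points) of jag1, dll1, notch1 and Hes genes, of other Notch pathway genes by role, and of proneural genes, with a black line at the median of each row; red marks an adjusted p under 0.05. The pathway rows below the first hold no red point, and insm1.L at 0.96 is the red point among the proneural genes.

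Proneural genes are basic helix-loop-helix and other regulators that push cells to become neurons, and Hes proteins repress several of them. The list of 19 also holds tubb2b, a neuronal tubulin, and ccno, a gene of multiciliated cells that the ciliated list below counts too. Of the 19, 12 had probe sets, and 1 of 17 probe sets was past the threshold and higher (background 1.10%), that of insm1.L, a zinc-finger factor of neuronal precursors. It read 1.60 and 1.72 in zic1 explants, against 0.780, 0.786 and 1.00 in control explants (difference 0.96 ± 0.14, adjusted p = 0.0481, limma). Its adjusted p was 0.0911 without control 1, 0.157 without control 2 and 0.0347 without control 3 (limma). The difference was 1.01 without zic1 replicate 1 and 0.92 without zic1 replicate 2. The call was also lost with a robust prior (adjusted p = 0.0551), after quantile normalization (0.0719) or cyclic loess (0.154), and with the set of arrays as a block (0.0790). Neurog2.L, the main neurogenin of the frog neural plate, read 1.29 and 1.37 in zic1 explants, against 0.993, 0.969 and 1.00 in control explants. These groups did not overlap and varied little, yet the difference of 0.43 ± 0.07 did not pass (adjusted p = 0.0632, limma). Both probe sets of the other copy, neurog2.S, overlapped with the controls (differences 0.32 and 0.06). Ascl2.L differed by 0.42, and ascl2.S, which overlapped, by 0.09. In the other direction tubb2b.S differed by -0.58, ccno.L by -0.55 and atoh7.S by -0.01, none past the threshold. The median of the 17 probe sets was 0.15.

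Markers of tissues that such explants could hold are set beside these genes, as mean log2 ratios over each list. For the 22 probe sets themselves the mean was 0.37 and 0.45 in zic1 explants, against -0.10, -0.07 and -0.30 in control explants. Neural plate markers averaged 0.48 and 0.45 in zic1 explants, against -0.04, -0.15 and -0.26 in control explants. In 15 of their 17 probe sets the zic1 arrays lay above all controls (background 19.9%), and 3 passed as higher (background 1.10%), all of zic1 and zic2 genes. Without the zic1 probe sets, which can hold the injected RNA, the means were 0.33 and 0.30 in zic1 explants, against -0.04, -0.16 and -0.24 in control explants.

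Paraxial mesoderm, where frog Hes genes are also active, was followed by 11 probe sets, which averaged 0.34 and 0.49 in zic1 explants, against -0.12, -0.18 and 0.06 in control explants. Of these 2 passed as higher (background 1.10%), those of myod1.S (2.86) and myod1.L (1.67). The other 9 differed by -0.18 (mespa.S) to 0.42 (ripply2.1.S), with a median of 0.05, and averaged 0.02 and 0.11 in zic1 explants, against -0.05, -0.14 and 0.07 in control explants, which overlapped. Multiciliated cell and ionocyte genes, whose cells Notch spaces out in frog epidermis, averaged -0.28 and -0.03 in zic1 explants, against -0.22, 0.23 and 0.10 in control explants. Epidermal genes averaged -0.57 and 0.02 in zic1 explants, against -0.37, 0.40 and 0.29 in control explants. Endoderm genes averaged -0.36 and -0.32 in zic1 explants, against -0.04, -0.08 and 0.70 in control explants. Of their 10 probe sets 4 lay below all controls (background 19.4%), all of sox17 genes, with differences from -2.04 to -0.71. That of mixer.S lay above all controls (0.27), and those of mixer.L, cer1.S, hhex.L and gata6 overlapped with them. The mean of the neural list and the 2 myod1 probe sets were higher in both zic1 arrays than in all controls. The endoderm mean was lower in both, with only sox17 probe sets below all controls. The epidermal and ciliated means overlapped between the groups. In the ciliated list 4 of 9 probe sets were above 0, and in the epidermal list 4 of 10. Foxi1.L (0.47) lay above all controls (background 19.9%), and ubp1.L (-0.98) and tp63.L (-0.06) lay below them (background 19.4%). The largest differences, of itln1.L (-2.08) and krt12.4.S (-1.53), had overlapping groups, and none of these passed. The part of these tissues in the Notch and Hes results was not tested. Since values are ratios, whether any marker was at or near 0 cannot be read from them, nor can the labelled tissue be checked by presence.

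**Figure D5:**
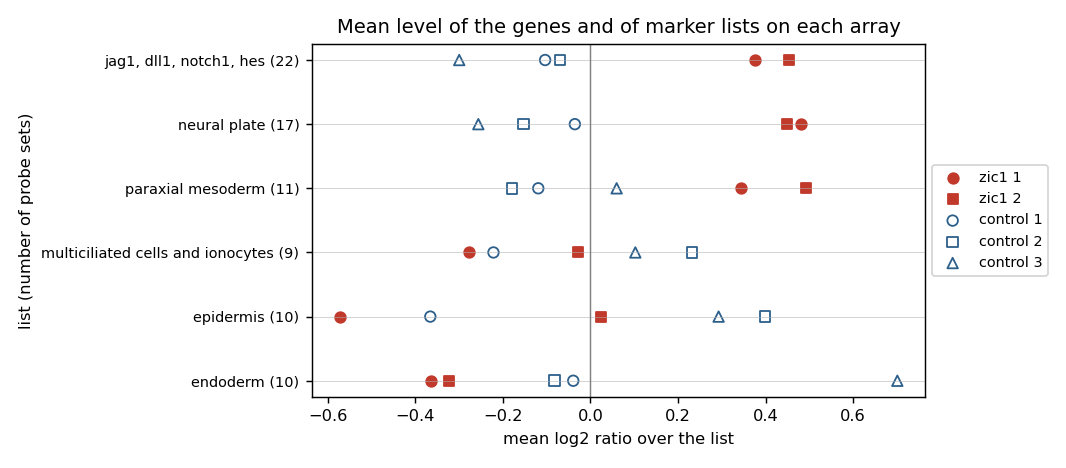
Mean log2 ratio over the 22 Notch ligand, receptor and Hes probe sets and over marker lists of 5 tissues (rows, with the number of probe sets) on each array; filled red symbols are zic1 arrays and open blue symbols control arrays. The top row has its zic1 arrays at 0.37 and 0.45 and the neural plate row at 0.48 and 0.45, with all controls below 0 in both, whereas control 3 stands alone at 0.70 in the endoderm row.

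Likeness to other genes was measured as the root mean square distance of the log2 values over the 5 arrays, each probe set first set to a mean of 0. For each of the genes named at the start, the 4 nearest named probe sets outside the group were taken. Jag1.L lay nearest to foxo3.L, a forkhead factor (distance 0.098), followed by rgcc.S (0.109), ncoa3.S (0.117) and the kinase gene fyn.S (0.119). Foxo3.L read 2.58 and 2.06 in zic1 explants, against 1.00, 0.861 and 0.874 in control explants, almost the profile of jag1.L. Notch1.S was nearest to 2 probe sets of ankrd11.L (0.065 and 0.070), then to zc3h13.S (0.073) and tead1.S (0.076), a factor of the Hippo pathway. Hes1.S was nearest to marchf8.L (0.104), jund.S (0.105), an AP-1 subunit, rab40b.L (0.110) and adad1.L (0.114).

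Hes7.1.L and hes5.5.S had looser neighbours. For hes7.1.L these were cfb.L (0.221), fibcd1.S (0.233), pax3.S (0.248), a paired-box factor of the neural plate border, and atg16l1.L (0.292). The S1_at probe set of hes5.5.S was closer to hes7.1.L than any of them, at 0.181. The probe set of hes5.5.S with the largest difference was nearest to zic1.S itself (0.211), whose probe set can hold the injected RNA. Zic1.S read 5.28 and 5.07 in zic1 explants, against 1.00, 0.965 and 0.699 in control explants. Next came prickle1.S (0.269), glipr2.S (0.301) and thop1.L (0.306). Jag1.L and notch1.S were each other's nearest among the 22 probe sets, at 0.220. These distances over 5 arrays rest mostly on the group difference and are a description.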

How the data were processed

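Labelled RNA from 2 µg of total RNA per sample was hybridised to Xenopus laevis Affymetrix arrays, per the labels' protocols. GCOS and RMA are the tools listed in the submitters' processing notes; neither a version nor the step each served is given. The deposited values are linear ratios: the median over the 5 arrays was exactly 1 in all 15571 probe sets with 5 values, a centring found from the values and stated in no source used here. Of 15572 probe sets, 81 Affymetrix controls and 1 without values in some arrays were left out, which left 15490, of which 9303 had 1 symbol in the platform annotation, 195 several and 5992 none here. All 22 chosen probe sets matched the gene table (Xenopus_laevis_v10.1), used for names and gene order only.

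Log2 ratios were compared with limma 3.58.1 (lmFit, eBayes) in R 4.3.3, zic1 minus control, and p-values were adjusted by Benjamini-Hochberg over all 15490; 0.05 was the threshold. Degrees of freedom were 3 (residual) and 2.29 (prior). The script was tested on simulated data. Having 5 arrays limits the precision. The genes, lists and tests were chosen with earlier results of these data known. Named genes were all chosen probe sets, the 4 nearest in profile, and pathway and proneural genes past the threshold. In each direction the 3 with the largest moderated t were named too. Other pathway, proneural and marker genes were named after their values were seen. No sequence or motif was searched. Alternatives were other scalings, array weights, a robust prior, blocks, a pseudocount of 1, another threshold, each array left out, and 1 value per symbol. Plots were drawn with matplotlib 3.10.9.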

Additional observations from a re-analysis of the deposited data

How the results depend on the processing

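Over 12 alternative fits, 16 of the 22 probe sets stayed above 0 and 3 below it. These fits are not 12 separate checks of the sign. The robust prior leaves every difference unchanged, and the replicate block returns the differences of the fit without control 3. Where the groups did not overlap, leaving out an array cannot turn the sign. The count of Notch ligand, receptor and Hes probe sets past the threshold, 3 in the reported fit, became 0 after quantile normalization (10 at an unadjusted p under 0.05, limma), after cyclic loess (8 unadjusted) or when the set entered as a block (10 unadjusted), 5 with log2(value + 1), 8 with array weights or at an adjusted p under 0.10, and 11 with the replicate block, and ran from 0 to 3 with single arrays left out; 1 of the 3 without control 3 was among those reported. It stayed 3 with a robust prior and with 1 value per symbol. Over all probe sets 314 passed with log2(value + 1) and 186 with a robust prior, against 219 in the reported fit. For 1 value per symbol the calls over all symbols were not counted. The wider pathway count, 0 as reported, became 2 with array weights, 3 at an adjusted p under 0.10 and 8 with the replicate block, and stayed 0 with each array left out. Over all probe sets the count of 219 became 109 after quantile normalization, 0 after cyclic loess (3331 at an unadjusted p under 0.05), 935 with array weights, 37 with the set block, 1054 at an adjusted p under 0.10, 2692 with the replicate block, and 0 to 207 with single arrays left out, a lone zic1 array then being assumed to vary like the controls. Cyclic loess can take out part of the group difference itself from such ratios, as stated for notch1.S. The causes were not tested. Numbers 1 and 2 occur in both groups. Deviations from the group means correlated across probe sets, with r of 0.32 for number 1 and 0.28 for number 2. The deviations of the 2 zic1 arrays are mirror images by construction, so these are not independent results. With 2 pairs and no label of a shared day the arrays were not taken as pairs. The fit with the replicate block leaves 1 residual degree of freedom. Signs turned only in 3 of the 22 probe sets, all with 95% intervals that include 0. Hes5.1.L turned to -0.0079 after quantile normalization, -0.11 with array weights, -0.30 with the replicate block and -0.0029 with log2(value + 1), and ran from -0.30 to 0.23 with single arrays left out. The hes7.1.L probe set ending A1_at turned to -0.13 with the replicate block and ran from -0.13 to 0.42 with single arrays left out. The hes4.S probe set ending S1_at ran from -0.033 without zic1 replicate 2 to 0.35.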

Other observations

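Further genes of the pathway outside both lists were looked up after their values were seen. Esr-5.L, by its symbol a gene of the enhancer-of-split-related group, read 1.66 and 1.82 in zic1 explants, against 1.00, 0.949 and 0.644 in control explants, with no overlap and control 3 again lowest (difference 1.03 ± 0.21, adjusted p = 0.0799, limma). Both probe sets of the Delta ligand dld.S pointed the other way: one read 0.877 and 0.800 in zic1 explants, against 1.11, 1.00 and 1.15 in control explants (difference -0.37 ± 0.10, adjusted p = 0.117, limma), and the other differed by -0.35. Neither gene passed the threshold.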
